A study of Mus musculus with 12 samples.

Results

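Departures from additivity between the Notch1 and Zmiz1 vectors were measured across all 12 RNA sequencing libraries of the series, which form a 2 by 2 design in the mouse T cell leukemia line 8946. Of 23284 gene symbols, 10152 had a mean of at least 1 FPKM (fragments per kilobase, scaled to library size, a level corrected for gene length) over the 12 libraries and were tested. Cells received a pair of retroviral vectors, and those positive for both GFP and NGFR were sorted. The Notch1+Zmiz1 group carried the Notch1 mutant L1601P with GFP and Zmiz1 with NGFR. The Notch1 group carried L1601P with GFP and the empty NGFR vector, the Zmiz1 group carried Zmiz1 with NGFR and the empty MigR1 vector, and the control group carried both empty vectors. Each group held 3 libraries. Every group is the same line with sorted, vector-driven expression, and the labels do not say whether its libraries came from separate transductions or cultures, so the p-values measure only the spread between these libraries, which may be technical.

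Notch1 is a receptor whose cleaved intracellular part joins the DNA-binding protein CSL and switches on target genes such as Dtx1, Notch3, Ptcra and, in many T cell leukemias, Myc. L1601P is an activating change in the part of the receptor that holds it closed. Zmiz1 is a PIAS-like coactivator that binds Notch1 in T cells and raises the activity of some Notch1 target enhancers. The 8946 line is known to grow on a human MYC transgene that doxycycline can switch off, and the values below count the mouse Myc symbol.

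The measure was the effect of the Notch1 vector with Zmiz1 (Notch1+Zmiz1 minus Zmiz1) less its effect without Zmiz1 (Notch1 minus control), on log2(FPKM + 1). A value of 0 means that both effects add on this log scale, so that fold changes of FPKM + 1 multiply. For groups near or under 1 FPKM these differ from fold changes of FPKM. A positive value means that the combination lay above the level that the single vectors predict (above additivity), and a negative one that it lay below. The value is the same whichever vector is taken first, so it also holds for the effect of Zmiz1 with and without Notch1. It does not depend on which single-vector group is which. That matters because the labels contradict each other: the libraries titled Notch1 have MigR1/Zmiz1 as their cell line label, and those titled Zmiz1 have L1601P/NGFR. Group names here follow the titles, which the column headers share and which the levels of both vector genes, given below, match.

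The vector genes were checked first. Notch1 stood at 33.5, 36.2 and 37.2 FPKM in the Notch1+Zmiz1 libraries, at 32, 42.2 and 22.1 FPKM in the Notch1 libraries, at 2.04, 1.92 and 2.34 FPKM in the Zmiz1 libraries and at 1.91, 1.97 and 1.8 FPKM in the controls. Zmiz1 stood at 47.6, 49.3 and 51 FPKM in the Notch1+Zmiz1 libraries, at 0.194 to 0.221 FPKM in the Notch1 libraries, at 70.3, 67.7 and 74.4 FPKM in the Zmiz1 libraries and at 0.17 to 0.18 FPKM in the controls. Both genes were high in every library whose title names them and in no other. The Notch1 level was not called (departure 0.09 on the log2 scale, 95% interval -0.45 to 0.63). The Zmiz1 level was called, at -0.56 (SE 0.0747; limma, Benjamini-Hochberg adjusted p = 0.0266), and every Notch1+Zmiz1 library lay below every Zmiz1 library. This call passed in 7 of 23 alternative settings, and the departure was -0.15 under quantile normalization. The combined cells held less RNA of the Zmiz1 symbol than the cells with Zmiz1 alone, averaging 49.3 ± 1.66 FPKM against 70.8 ± 3.39 FPKM (SD, n = 3 each), and the part of this in the results below was not tested. Ngfr, the marker of the same vector, stood at 5.65, 5.66 and 5.62 FPKM in the Notch1+Zmiz1 libraries, at 61.4, 77 and 80.3 FPKM in the Notch1 libraries, at 7.35, 7.23 and 7.71 FPKM in the Zmiz1 libraries and at 82.8, 83.8 and 88.9 FPKM in the controls, so it was highest with the empty NGFR vector and, among the Zmiz1 vectors, lower in the combination. Its departure of -0.11 was not called (95% interval -0.38 to 0.16). Reads of the vector and of the cell's own gene cannot be told apart. Defining markers of T cells (Cd3d, Cd3e, Cd3g, Thy1, Lck, Cd4 and Cd8a) were all present, summing to between 3490 and 4610 FPKM per library. No B cell marker (0.56 to 1.74 FPKM summed) or NK cell marker (0.276 to 0.541 FPKM summed) reached a mean of 1 FPKM, and of the myeloid, fibroblast and erythroid markers only Itgam, Vim, Epor and Tfrc did. Itgam moved with Notch1, at 59.2, 59.1 and 61.5 FPKM in the Notch1+Zmiz1 libraries, 58.2, 58 and 50.9 FPKM in the Notch1 libraries, 97.2, 91.3 and 100 FPKM in the Zmiz1 libraries and 98.9, 97.7 and 102 FPKM in the controls, and had a departure of 0.16 (not called), while Csf1r, Elane and Lyz2 were at or near 0. The sum of FPKM lay between 549098 and 606908 per library and 14233 to 14554 genes were above 0. Zmiz1 replicate 2 stood apart, with a mean correlation of 0.9421 with the other libraries against 0.9492 to 0.9565. It held 0.859 FPKM of Jun and 162 FPKM of Ets2, against 5.93 and 5.51 FPKM of Jun and 69.2 and 69.7 FPKM of Ets2 in the other Zmiz1 libraries. Notch1 replicate 3 had the next lowest correlation, 0.9492, and the largest sum of FPKM, 606908. Its Cdk6 level was 8.2 FPKM, against 22.2 and 24.3 FPKM in the other Notch1 libraries.

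Few genes departed from additivity. At an adjusted p under 0.05 (limma, Benjamini-Hochberg over all genes tested) 7 genes were called, 0.069% of those tested. Above additivity were 2 genes (0.0197%), Myc and Plac8. Below it were 5 genes (0.0493%), Ccr8, Aldoa, Tpi1, Pgk1 and Zmiz1 itself. Myc passed the filter only through the combined libraries, in which it was then called high, and its call was lost at pseudocounts of 0.1 and 0.01. At an unadjusted p under 0.05 there were 332 genes (3.27%), 174 above additivity (1.71%) and 158 below it (1.56%). The measure was positive in 50.2% of genes and its quartiles were -0.08 and 0.08. By comparison, 557 genes (5.49%) were called in Notch1 against control and 214 (2.11%) in Zmiz1 against control.

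The precision behind the calls can be stated per gene. The median standard error was 0.136. For 83.2% of genes the 95% interval excluded a departure of more than 1.5-fold in FPKM + 1, in either direction. For 96.6% it excluded more than 2-fold. Where a group lies near or under 1 FPKM, the added 1 shrinks folds, so these bounds do not hold for FPKM itself. The share within 1.5-fold was 73.5% of the 1961 genes with a mean of 1 to 5 FPKM and 87.9% of the 3496 genes of 20 to 100 FPKM. A departure of at least 1 in size was seen for 178 genes, but 166 of these had symbols of microRNA, small RNA or predicted genes, with a median standard error of 2.25. Among the other 12, Rnu73b and Rmrp are noncoding RNA genes as well, and Ccr8, Aldoa, Tpi1 and Myc were called.

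**Figure D1:**
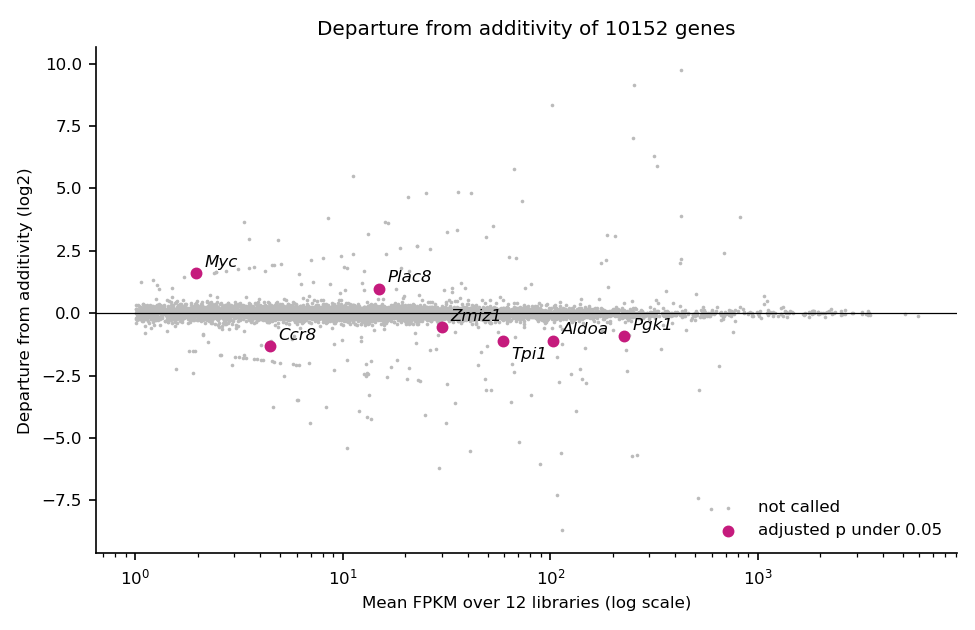
Departure from additivity on the log2 scale (vertical axis) against the mean FPKM over the 12 libraries (horizontal axis, log scale), 1 point per gene tested. The 7 called genes are named in pink. Most points lie close to 0, with quartiles of -0.08 and 0.08, and the widely scattered grey points are mostly short noncoding RNA and predicted gene symbols.

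Myc, which encodes a transcription factor that drives growth and ribosome production, stood furthest above additivity among the called genes. Its level was 5.91, 6.76 and 6.87 FPKM in the Notch1+Zmiz1 libraries, 0.721, 0.811 and 0.887 FPKM in the Notch1 libraries, 0.285, 0.61 and 0.499 FPKM in the Zmiz1 libraries and 0.0828, 0.106 and 0.0274 FPKM in the controls. The combination was above the other 9 libraries without overlap, as 1.6% of tested genes were. Myc entered the test only because these libraries were high, so this order is a description and no separate support for the call. The additive expectation was 1.46 FPKM, and the departure was 1.61 (SE 0.142; limma adjusted p = 0.0019). On log2(FPKM + 1) the Notch1 effect was 2.36 with Zmiz1 and 0.75 without it. The gene (chr15:61985391-61990374, plus strand, GRCm38) passed the filter only through the combined libraries, so its scale matters. As ratios of means, the combination was 90.5 times the control, the Notch1 group 11.2 times and the Zmiz1 group 6.46 times, and the single ratios multiply to 72.4. With pseudocounts of 0.1 and 0.01 the departure was 1.17 and 0.38 and was not called (limma adjusted p = 1 for both). In mean FPKM without logs it was 5.31 FPKM above the sum of the single effects. Of the 9 other tested genes of the Myc and Max network (Max, Mga and the Mxd, Mnt and Mlx proteins that share Max or its targets), 0 were called, with values from -0.29 for Mxd3 to 0.15 for Mxd4.

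Plac8, a small cysteine-rich protein gene of blood and immune cells (chr5:100553725-100572245, minus strand), was also above additivity, but in the opposite setting, since both single vectors lowered it. It stood at 10.9, 11.8 and 10.7 FPKM in the Notch1+Zmiz1 libraries, at 8.78, 8.29 and 9.52 FPKM in the Notch1 libraries, at 14.8, 15.2 and 14.9 FPKM in the Zmiz1 libraries and at 25.2, 25.7 and 22.8 FPKM in the controls. The controls were above the other 9 libraries, as they were for 2.16% of tested genes. Adding the single effects gives 5.16 FPKM, and the departure was 0.98 (SE 0.0921; limma adjusted p = 0.00194). Notch1 lowered Plac8 by a log2 change of -0.40 with Zmiz1 present and of -1.37 without it. Plac8 is the called gene for which both single effects also passed the test.

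Ccr8, a chemokine receptor of activated and regulatory T cells (chr9:120092114-120094906, plus strand), lay furthest below additivity. It stood at 3.8, 3.33 and 4.21 FPKM in the Notch1+Zmiz1 libraries, at 0.253, 0.227 and 0.249 FPKM in the Notch1 libraries, at 13.7, 15.1 and 11.3 FPKM in the Zmiz1 libraries and at 0.407, 0.427 and 0.599 FPKM in the controls. The Zmiz1 libraries were above the other 9, as they were for 2.21% of tested genes, and the combination lay between them and the rest. The additive expectation was 11 FPKM and the departure was -1.33 (SE 0.153; limma adjusted p = 0.00735). Like Myc it rests on groups under 1 FPKM. With a pseudocount of 0.1 it was -1.05 (limma adjusted p = 0.535), with 0.01 it was -0.89 (limma adjusted p = 1), and under quantile normalization it was -1.17 (limma adjusted p = 0.325). The neighbouring chemokine receptor gene Cx3cr1 (chr9:119901616-120069879, minus strand) had a mean under 1 FPKM. In a fit without the filter, over the 16835 genes above 0 in any library, 18 genes were called (0.107%), and the Cx3cr1 departure was -0.63 (limma adjusted p = 0.00354), with 0.536, 0.605 and 0.565 FPKM in the Notch1+Zmiz1 libraries, 0.0149 to 0.0383 FPKM in the Notch1 libraries, 1.55, 1.72 and 1.39 FPKM in the Zmiz1 libraries and 0.0411 to 0.111 FPKM in the controls. The order of the groups was that of Ccr8, with Zmiz1 highest and the combination next. The call was lost at pseudocounts of 0.1 (-0.79, limma adjusted p = 0.806) and 0.01 (-0.10, limma adjusted p = 1), and as ratios of means the combination was 7.16 times the control where the single ratios multiply to 6.07, the other side of additivity. Cx3cr1 was chosen after its values were seen.

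**Figure D2:**
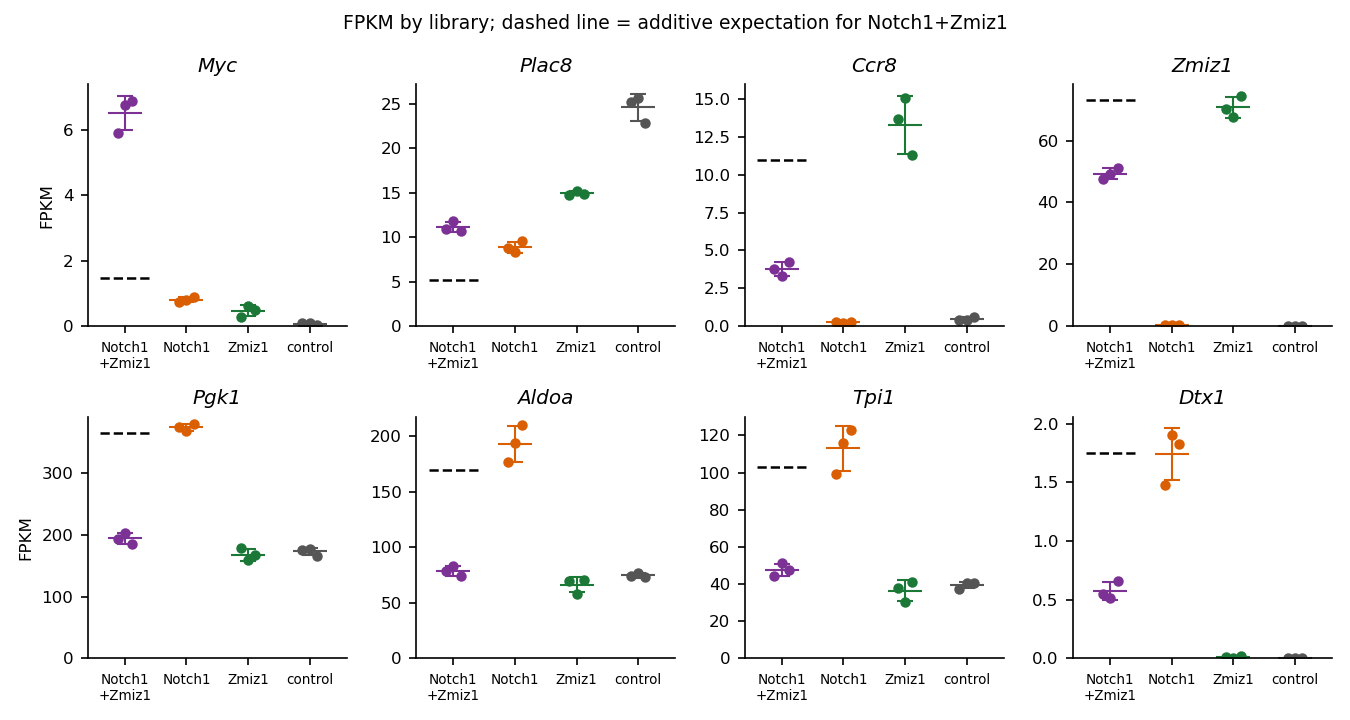
FPKM of the 7 called genes and of Dtx1, which was called in the fit without the filter, by library. Points are libraries, horizontal bars group means with SD (n = 3), and the dashed line the level of Notch1+Zmiz1 that the single-vector groups predict on log2(FPKM + 1). Myc and Plac8 lie above the line and the other 6 genes below it.

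The remaining called genes, Pgk1, Aldoa and Tpi1, encode enzymes of glycolysis, the pathway that splits glucose to pyruvate. Their promoters are shown because HIF1, the hypoxia-induced factor known to switch on glycolytic genes, binds cores such as ACGTG. The windows are those of RefSeq on GRCm38.p6, from 250 bases before to 50 after the transcript start, and capitals mark ACGTG or its reverse complement. The Aldoa window is 1 of 3 for that gene. Of the others, chr7:126800398-126800697 held 0 matches, and chr7:126799129-126799428, which overlaps the window shown, held 1.
Pgk1 (chrX:106186850-106187149, plus strand): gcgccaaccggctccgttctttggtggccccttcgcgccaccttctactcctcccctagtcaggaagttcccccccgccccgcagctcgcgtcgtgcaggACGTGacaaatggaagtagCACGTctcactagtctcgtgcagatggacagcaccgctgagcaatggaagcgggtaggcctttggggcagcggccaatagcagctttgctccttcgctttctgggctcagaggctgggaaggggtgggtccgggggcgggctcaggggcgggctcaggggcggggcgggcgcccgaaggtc
Aldoa (chr7:126799205-126799504, minus strand): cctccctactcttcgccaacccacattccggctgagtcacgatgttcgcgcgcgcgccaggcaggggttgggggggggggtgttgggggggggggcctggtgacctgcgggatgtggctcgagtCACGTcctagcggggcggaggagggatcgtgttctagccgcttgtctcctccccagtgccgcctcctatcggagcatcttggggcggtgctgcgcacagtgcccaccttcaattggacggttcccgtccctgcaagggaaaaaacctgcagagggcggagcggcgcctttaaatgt
Tpi1 (chr6:124814109-124814408, minus strand): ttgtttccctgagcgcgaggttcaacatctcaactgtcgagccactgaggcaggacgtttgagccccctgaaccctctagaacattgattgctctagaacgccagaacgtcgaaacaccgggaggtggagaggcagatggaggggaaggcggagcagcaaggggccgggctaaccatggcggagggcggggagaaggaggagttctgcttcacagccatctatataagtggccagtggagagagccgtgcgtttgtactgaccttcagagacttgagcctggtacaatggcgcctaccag
Pgk1 held 2 matches, this Aldoa window 1 and Tpi1 0. The letters, on either strand and including those inside the E-box CACGTG, were found in 19.6% of 32851 such windows and for 21.8% of 27025 symbols. Of the 20 tested genes of the glycolysis list, 19 had a window and 12 had a match in at least 1. A match is a run of letters, not a measured binding site.

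Pgk1 (phosphoglycerate kinase) stood at 193, 203 and 185 FPKM in the Notch1+Zmiz1 libraries, at 374, 368 and 380 FPKM in the Notch1 libraries, at 178, 159 and 168 FPKM in the Zmiz1 libraries and at 175, 177 and 166 FPKM in the controls. The Notch1 libraries were alone in being high. Pgk1 rose in Notch1 against control by 1.11 on the log2 scale (limma adjusted p = 1.68e-06), whereas Notch1+Zmiz1 against Zmiz1 gave 0.20 (limma adjusted p = 0.0935). The departure was -0.91 (SE 0.0821; limma adjusted p = 0.0019).

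Aldoa (aldolase A) stood at 78.7, 83.5 and 74.4 FPKM in the Notch1+Zmiz1 libraries, at 177, 194 and 210 FPKM in the Notch1 libraries, at 70, 58.2 and 70.1 FPKM in the Zmiz1 libraries and at 74, 76.9 and 73.1 FPKM in the controls. Its additive expectation was 170 FPKM and its departure -1.10 (SE 0.121; limma adjusted p = 0.00633). Tpi1 (triosephosphate isomerase) stood at 44.5, 51.2 and 47.4 FPKM in the Notch1+Zmiz1 libraries, at 99.4, 116 and 123 FPKM in the Notch1 libraries, at 37.6, 30.3 and 41.2 FPKM in the Zmiz1 libraries and at 37.4, 40.4 and 40.5 FPKM in the controls. Its departure was also -1.10 but less certain (SE 0.16; limma adjusted p = 0.0464). Both had the pattern of Pgk1, with the Notch1 libraries above the other 9. For Tpi1 the call was lost when any single library other than Zmiz1 replicate 2 or Notch1 replicate 1 was left out (limma adjusted p = 0.0858 to 0.207).

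Across the glycolysis list of 20 tested genes, 3 were called below additivity and 0 above. At an unadjusted p under 0.05 there were 12 of 20 below, against 1.56% of all genes tested, and 0 above. The median departure was -0.32, beside 0.00 over all genes, and 16 of 20 were negative (49.8% of all genes were). The list was chosen with earlier results of these data known, so its counts are a description. In order along the pathway, the departure was -0.38 for Gpi1 (glucose-6-phosphate isomerase), -0.45 for Pfkl and -0.66 for Pfkp (phosphofructokinases), -0.27 for Gapdh, -0.23 for Pgam1 (phosphoglycerate mutase), -0.36 for Eno1 (enolase), -0.69 for Pkm2 (pyruvate kinase), -0.40 for Ldha (lactate dehydrogenase) and -1.10 for Slc16a3 (a lactate exporter). None of these 9 was called (limma adjusted p = 0.0917 for Pkm2 and at least 0.305 for the others). The glucose transporters Slc2a1 and Slc2a3, the first kinase Hk1 and the brake on pyruvate oxidation Pdk1 had departures of 0.13, 0.03, -0.20 and -0.15, each with an interval that included 0. The tested members Pfkm, Pfkfb3, Eno3 and Slc16a1 are not given by value. In the whole list 4 genes were positive, Slc2a1 and Slc2a3 among them.

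The single effects stood as follows. In Notch1 against control 12 of the 20 genes rose (3.19% of all genes did) and 0 fell (2.3% of all genes did). In Notch1+Zmiz1 against Zmiz1 1 rose (2.67% of all genes did), and in Notch1+Zmiz1 against Notch1 10 fell (0.68% of all genes did). For 14 of the 20 the Notch1 libraries were above the other 9, as they were for 2.52% of all genes tested. The mean log2 level of the list was 5.24 to 5.32 in the Notch1+Zmiz1 libraries, 5.71 to 5.79 in the Notch1 libraries, 5.10 to 5.21 in the Zmiz1 libraries and 5.25 to 5.26 in the controls. Further down the pathway, Pkm2 stood at 159, 184 and 174 FPKM in the Notch1+Zmiz1 libraries, at 273, 324 and 301 FPKM in the Notch1 libraries, at 154, 156 and 168 FPKM in the Zmiz1 libraries and at 161, 175 and 176 FPKM in the controls. Ldha stood at 383, 399 and 373 FPKM in the Notch1+Zmiz1 libraries, at 458, 473 and 499 FPKM in the Notch1 libraries, at 363, 336 and 352 FPKM in the Zmiz1 libraries and at 334, 340 and 315 FPKM in the controls. Slc16a3 stood at 2.83, 3.24 and 3.28 FPKM in the Notch1+Zmiz1 libraries, at 9.12, 9.75 and 9.73 FPKM in the Notch1 libraries, at 2.3, 1.56 and 3.28 FPKM in the Zmiz1 libraries and at 3.01, 2.76 and 3.08 FPKM in the controls. In each of these genes the Notch1 libraries were above the other 9. The pattern did not rest on the library that stands apart. Without Zmiz1 replicate 2 the list had 4 genes called below and a median of -0.36.

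**Figure D3:**
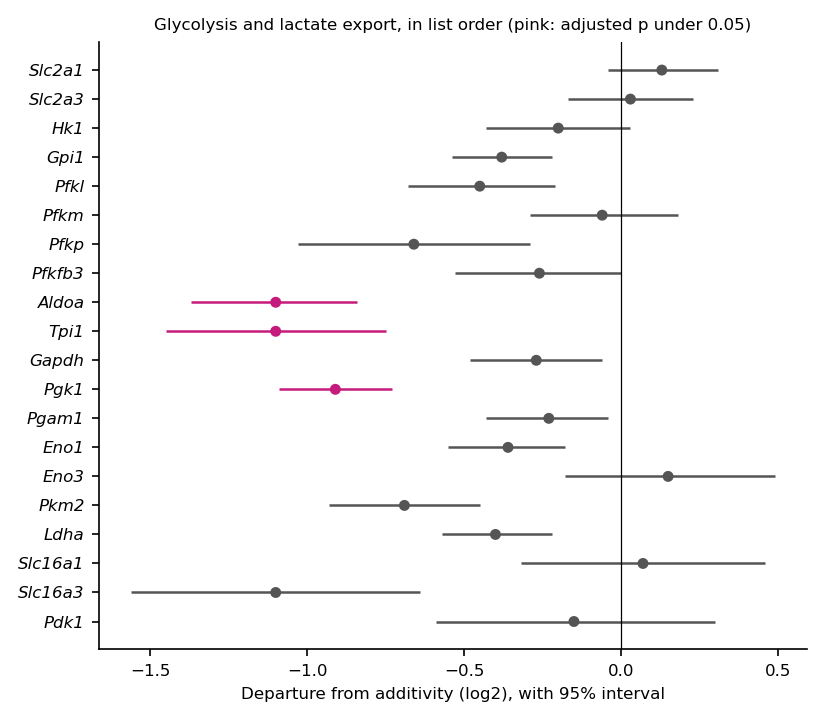
Departure from additivity of the 20 tested genes of glycolysis and lactate export, from glucose uptake at the top to lactate export and Pdk1 at the bottom. Points are log2 departures and lines their 95% intervals, with called genes in pink. Pgk1, Aldoa and Tpi1 lie between -1.10 and -0.91, and 16 of the 20 points are below 0.

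The hypoxia list, which holds Hif1a, its hydroxylases and targets outside glycolysis, had 0 of 24 tested genes called. At an unadjusted p under 0.05 there were 5 of 24 below additivity (1.56% of all genes were) and 1 above (1.71% were), and the median was -0.10. Bnip3, a mitophagy receptor, stood at 6.65, 5.62 and 6.61 FPKM in the Notch1+Zmiz1 libraries, at 22.7, 19.3 and 20.1 FPKM in the Notch1 libraries, at 7.05, 4.11 and 4.31 FPKM in the Zmiz1 libraries and at 7.52, 7.85 and 7.15 FPKM in the controls. The Notch1 libraries were again alone in being high, and the departure was -1.08 (SE 0.211; limma adjusted p = 0.305). The others below were Mif (-0.58), the collagen prolyl hydroxylase P4ha1 (-0.44), Tmem45a (-0.38) and the HIF prolyl hydroxylase Egln1 (-0.35), and the peptide hormone gene Adm was above (0.68). Hif1a itself gave -0.10 (95% interval -0.41 to 0.21). The 47 respiratory chain subunits had a median of 0.00, with 0 at an unadjusted p under 0.05 in either direction.

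Genes of protein folding in the endoplasmic reticulum leaned the other way, by smaller amounts. These chaperones and disulfide isomerases are induced together when unfolded protein builds up. Of 33 tested, 0 were called, and at an unadjusted p under 0.05 there were 10 of 33 above additivity (1.71% of all genes were) and 1 below (1.56% were). The median was 0.13 and 30 of 33 were positive (50.2% of all genes were), and the list too was chosen with earlier results known. Hyou1, a large chaperone, stood at 70.8, 79.4 and 80.2 FPKM in the Notch1+Zmiz1 libraries, at 50.7, 54.6 and 46.6 FPKM in the Notch1 libraries, at 28.7, 29.6 and 33 FPKM in the Zmiz1 libraries and at 27.6, 30.2 and 29.2 FPKM in the controls. The groups with Notch1 were both raised and did not overlap, with the combination higher. Its departure was 0.53 (SE 0.111; limma adjusted p = 0.366).

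Hspa5 (BiP, the main chaperone of the compartment) stood at 389, 404 and 402 FPKM in the Notch1+Zmiz1 libraries, at 295, 295 and 283 FPKM in the Notch1 libraries, at 165, 119 and 164 FPKM in the Zmiz1 libraries and at 152, 151 and 146 FPKM in the controls. Its departure was 0.47 (limma adjusted p = 0.999), and the low value among the Zmiz1 libraries is replicate 2. Sdf2l1, part of the same chaperone complex, stood at 62.9, 64.6 and 63.3 FPKM in the Notch1+Zmiz1 libraries, at 44.5, 48.7 and 51.8 FPKM in the Notch1 libraries, at 16.8, 13.1 and 19.5 FPKM in the Zmiz1 libraries and at 17.8, 20.1 and 19.3 FPKM in the controls. Of all 12 libraries the combined 3 were highest for both genes. The other 8 above were Sdf2l1 (0.60), Pdia4 (0.54), Hsp90b1 (0.42), Calr (0.40), Pdia6 (0.38), Herpud1 (0.36), Manf (0.29) and Pdia3 (0.21). Wfs1, a membrane protein gene of the same compartment, was below (-0.62).

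In Notch1+Zmiz1 against Zmiz1 21 of the 33 rose (2.67% of all genes did) and 2 fell (1.19% did), and in Notch1 against control 19 rose (3.19% did) and 1 fell (2.3% did). For 13 of 33 the combined libraries were above the other 9, as they were for 1.6% of all genes tested. The mean log2 level of the list was 6.014, 6.021 and 6.003 in the Notch1+Zmiz1 libraries, 5.75 to 5.76 in the Notch1 libraries, 5.37 to 5.48 in the Zmiz1 libraries and 5.33 to 5.37 in the controls. Without Zmiz1 replicate 2 the list had 9 genes above at an unadjusted p under 0.05 and a median of 0.14. The median log2 effect of Notch1 on the list was 0.53 with Zmiz1 and 0.41 without it, where the glycolysis list had 0.12 with Zmiz1 and 0.47 without it. The difference between the lists was not tested.

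**Figure D4:**
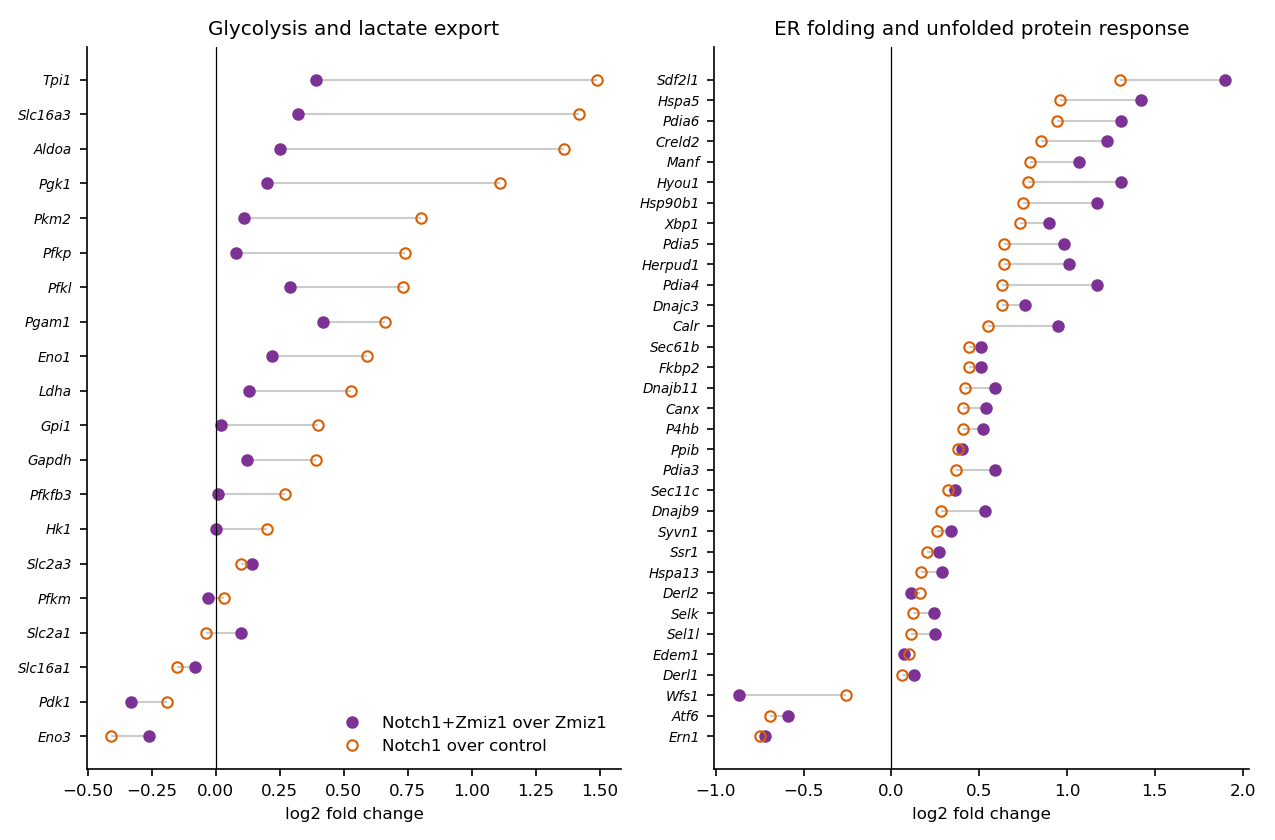
Log2 fold change of Notch1+Zmiz1 over Zmiz1 (filled) and of Notch1 over control (open) for each tested gene of the glycolysis list (left) and the endoplasmic reticulum list (right), ordered by the open points. For Pgk1 the filled point is at 0.20 and the open one at 1.11, whereas for Hyou1 the filled point is at 1.31 and the open one at 0.78.

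The list of direct Notch1 targets was spread around additivity, but most of its tested genes did not rise with Notch1. Of 10 tested, 0 were called and the median was 0.01. In Notch1 against control 3 of the 10 rose (3.19% of all genes did), with a median log2 change of -0.01. At an unadjusted p under 0.05, 2 were below additivity (1.56% of all genes were) and 0 above. Among the named targets that rose with Notch1, Ptcra, Ccnd3 and, under the filter, Dtx1 and Notch3 lay below additivity, and Trib2 close to it. Myc, counted here in the Myc and Max network, also rose with Notch1, by 0.75 without Zmiz1 (limma adjusted p = 0.00141). It lay above additivity, at 1.61 on log2(FPKM + 1), a call that was lost at smaller pseudocounts. Ptcra, which pairs with the beta chain in the pre-T cell receptor, stood at 2.28, 2.22 and 1.96 FPKM in the Notch1+Zmiz1 libraries, at 4.37, 5.65 and 5.85 FPKM in the Notch1 libraries, at 0.286, 0.602 and 0.466 FPKM in the Zmiz1 libraries and at 0.379, 0.645 and 0.64 FPKM in the controls. It rose with Notch1 in both settings, by 1.12 with Zmiz1 and 2.01 without it (limma adjusted p = 0.000428 and 4.89e-06). The departure of -0.89 was not called (SE 0.174; limma adjusted p = 0.305). The other was Ccnd3 (cyclin D3), at -0.26. Trib2, a pseudokinase gene, gave -0.01 (95% interval -0.33 to 0.32), with a Notch1 effect of 1.04 in both settings.

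Dtx1 and Notch3 lay under the filter, and the fit over all 16835 genes called both. That fit also called genes near 0 FPKM in every group. Vmo1, at a mean of 0.0595 FPKM in the controls and 0 in each other group, gave 0.08 (limma adjusted p = 0.00529). Also near 0 were Vsig8 (0.10), Gm16796 (0.16), Cpa3 (-0.12) and Grrp1 (-0.13). A small adjusted p in this fit can therefore rest on very small values. Dtx1 (a Notch regulator; chr5:120680202-120711927, minus strand) stood at 0.545, 0.515 and 0.663 FPKM in the Notch1+Zmiz1 libraries, at 1.48, 1.9 and 1.83 FPKM in the Notch1 libraries, at 0 to 0.0168 FPKM in the Zmiz1 libraries and was listed at 0 in all controls. Its departure was -0.81 (SE 0.0757; limma adjusted p = 0.00262), with -1.56 (limma adjusted p = 0.0136) at a pseudocount of 0.1 and -2.33, no longer called, at 0.01 (limma adjusted p = 0.402). Notch3, a receptor that Notch1 induces (chr17:32120820-32166852, minus strand), stood at 0.428, 0.33 and 0.443 FPKM in the Notch1+Zmiz1 libraries, at 1.63, 1.94 and 1.22 FPKM in the Notch1 libraries, at 0.0344 to 0.0486 FPKM in the Zmiz1 libraries and at 0.0408 to 0.0937 FPKM in the controls. Its departure was -0.85 (SE 0.114; limma adjusted p = 0.031), and the call was lost at both lower pseudocounts (-1.52 and -1.43; limma adjusted p = 0.116 and 0.967), with the replicate block (limma adjusted p = 0.0851) and without 10 of the 12 libraries in turn. Both were highest in the Notch1 libraries, with the combination next and no overlap. Hes1, the best known Notch target, was listed at 0 in all 12 libraries. The letters TGGGAA, the core that CSL binds, were present in the promoter windows of 2 of the 12 listed targets with a window, Dtx1 and Notch3 included, against 28.3% of all symbols. The Ptcra window held 2 matches, in capitals.
Ptcra (chr17:46763663-46763962, minus strand): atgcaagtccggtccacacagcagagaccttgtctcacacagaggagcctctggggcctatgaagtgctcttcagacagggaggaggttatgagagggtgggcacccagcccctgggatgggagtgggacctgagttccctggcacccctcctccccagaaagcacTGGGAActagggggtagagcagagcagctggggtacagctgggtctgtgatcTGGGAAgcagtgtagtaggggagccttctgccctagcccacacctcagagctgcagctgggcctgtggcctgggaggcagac
The Dtx1 and Notch3 windows held 0. Binding outside these 300 bases was not analysed.

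Targets of Myc and growth genes showed small departures. Of 40 genes of ribosome biogenesis, 0 were called, 31 were positive (50.2% of all genes were) and the median was 0.06. At an unadjusted p under 0.05, 4 were above additivity (1.71% of all genes were) and 0 below (1.56% were). These 4 were the ribosome assembly genes Rrp12 (0.33), Wdr43 (0.19) and Tsr1 (0.26), and Dkc1 (0.27), which modifies ribosomal RNA. Of 20 aminoacyl-tRNA synthetases, which load amino acids onto transfer RNA, 18 were positive (50.2% of all genes were) with a median of 0.12. At that level 2 of the 20 were above (1.71% of all genes were), Mars (0.24) and Nars (0.15), and 0 below. Of 27 genes of the amino acid stress response and one-carbon metabolism, 3 were above (1.71% of all genes were) and 0 below. The 3 were Shmt2 (0.36), Aldh18a1 (0.45) and Gpt2 (0.36). Shmt2, which feeds serine into mitochondrial one-carbon metabolism, stood at 58.6, 62.8 and 61.4 FPKM in the Notch1+Zmiz1 libraries, at 40.9, 44.5 and 44.1 FPKM in the Notch1 libraries, at 27.5, 29 and 29.9 FPKM in the Zmiz1 libraries and at 25.8, 26.4 and 26.8 FPKM in the controls, in 4 separate steps. Srm, the spermidine synthase, gave 0.41 and Cad, which starts pyrimidine synthesis, 0.39. None of these was called. Both the DNA replication list (42 tested, 38 negative, median -0.13) and the mitosis list (35 tested, 31 negative, median -0.15) leaned below additivity, again with 0 called. Over all genes 49.8% were negative. At an unadjusted p under 0.05, 3 of 42 replication genes and 2 of 35 mitosis genes were below (1.56% of all genes were), and 0 above. Without Zmiz1 replicate 2 the medians of these lists were -0.10 and -0.11.

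**Figure D5:**
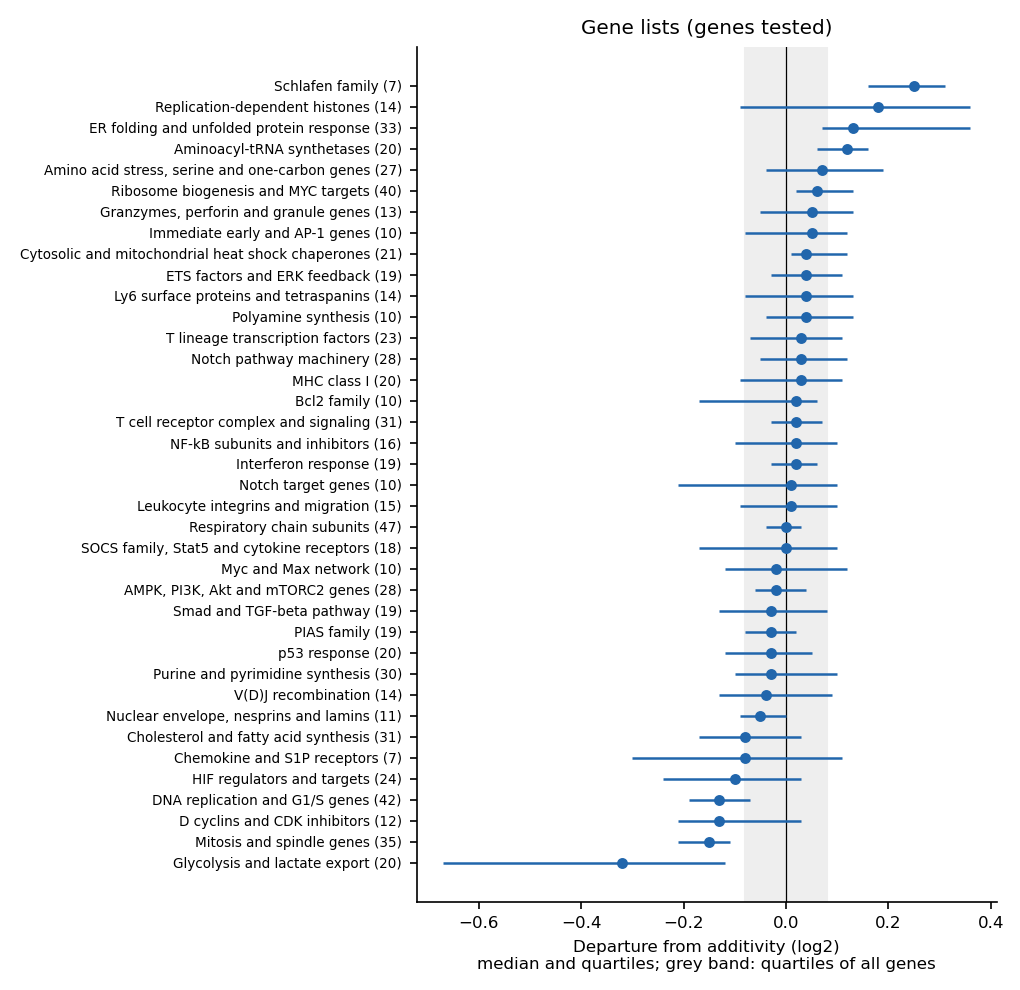
Median (point) and quartiles (line) of the departure from additivity for each list with at least 5 tested genes, with the number tested in brackets. The grey band marks the quartiles of all genes tested, -0.08 and 0.08. Glycolysis has the lowest median, -0.32, and the Schlafen family, the replication-dependent histones and the endoplasmic reticulum list the highest, 0.25, 0.18 and 0.13.

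Some genes passed the test with each vector alone. Of the 63 genes (0.621%) called in both Notch1 against control and Zmiz1 against control, the 8 whose smaller effect was largest were Gzma, Etv5, Itm2a, Il7r, Actn2, Kctd12, Tmem151b and Tmem45a, and 0 of the 8 were called for non-additivity. Of the 63, 1 (Plac8) was called and 28 had a 95% interval that excluded 0, Gzma, Etv5, Tmem151b (-0.26) and Tmem45a (-0.38) among them, against 3.27% of all genes tested. These genes were picked by effects that share the control libraries with the contrast, so the count is a description. Gzma (granzyme A, a cytotoxic protease) stood at 1130 ± 36.7 FPKM in Notch1+Zmiz1, 250 ± 26.2 FPKM in Notch1, 2250 ± 130 FPKM in Zmiz1 and 644 ± 38.1 FPKM in control libraries (SD, n = 3 each). Zmiz1 raised it by 1.81 and Notch1 lowered it by a log2 change of -1.36, and the combination, 0.81 above control on the log2 scale, lay 0.37 above the sum (95% interval 0.12 to 0.61; limma adjusted p = 0.999). In mean FPKM without logs the sign turned, with a linear expectation of 1860 FPKM and a difference of -733 FPKM. Etv5, an ETS transcription factor, gave 0.31 on the log2 scale (limma adjusted p = 0.71) and -39.8 FPKM without logs. Il7r, the interleukin-7 receptor alpha chain, gave 0.22 (95% interval -0.03 to 0.46). Mecom, a zinc-finger factor raised by Notch1 by 3.00 with Zmiz1 and 2.97 without it, gave 0.03 (95% interval -0.22 to 0.29).

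The other lists had no called gene apart from Myc and Ccr8 in theirs. Notch pathway machinery (28 tested, median 0.03) and the PIAS family (19 tested, median -0.03) had 0 at an unadjusted p under 0.05, as did the p53 (20 tested), interferon (19 tested) and NF-kB (16 tested) lists. Among 31 genes of the T cell receptor complex and its signaling the median was 0.02. At that level 1 was above and 2 below, against 1.71% and 1.56% of all genes. Cholesterol and fatty acid synthesis (31 tested) had a median of -0.08 with 1 below. The 7 Schlafen genes were all positive (50.2% of all genes were) with a median of 0.25, and Slfn5 (0.39) was the 1 above at that level. The range of their median over the alternatives ran from 0.02 to 0.33.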

How the data were processed

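RNA sequencing was analysed in all 12 libraries, 4 groups of 3. The deposited values are FPKM, 1 per gene symbol and library, per the file headers, and libraries were unstranded (TruSeq mRNA v2), per the labels' protocols. The submitters' processing notes name Cuffdiff 2.1.1, Cufflinks, TopHat2 2.0.9, Bowtie2 2.1.0.0 and FastQC 0.10.0 with build mm10, and their order, annotation and scaling are not given in the sources used here. The files give no read totals, so depth is unknown and no counting interval is given. Reads of overlapping genes and near-identical copies may be shared, as for Eno1 and its near-copy Gm5506.

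The authors' FPKM were used unscaled, as log2(FPKM + 1), for genes averaging 1 FPKM or more. A single limma model (version 3.58.1, R 4.3.3; group means, variances with an intensity trend) gave the contrast and the pairwise effects, two-sided, Benjamini-Hochberg adjusted over these genes, called under 0.05. For a pairwise effect, with 3 libraries against 3, exact permutation cannot go below p = 0.1. That bound does not apply to the contrast, which uses all 4 groups, and no permutation was run. The calls used variances shared across genes. Named genes were the 15 largest called each way, up to 4 called or else up to 2 largest of each of 45 lists, the 8 with large effects of both vectors, and anchors such as Dtx1 and Notch3. Other genes named were chosen after values were seen: most genes of the glycolysis, hypoxia and endoplasmic reticulum lists, the further members of growth lists at an unadjusted p under 0.05, members given as the range of a list, and Trib2, Hif1a, Jun, Cx3cr1, Ace, Myo6, Cdk20, Serpine2 and Gm5506. Vmo1, Vsig8, Gm16796, Cpa3 and Grrp1 were also chosen after their values were seen. The members and lists were chosen with earlier results of these data known. Positions are from GENCODE M21 (GRCm38, equal to mm10) by symbol. The alternatives were pseudocounts of 0.1 and 0.01, other filters, median ratio and quantile scaling, the replicate number as a block, other variance models, the cell line labels, short RNA genes left out, and each library left out. Figures used Python 3.11.15 and matplotlib 3.10.9.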

Additional observations from a re-analysis of the deposited data

Results flagged for a closer look

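The following genes differed in their Notch1 effect between cells with and without the Zmiz1 vector, by the test of that difference itself. Values are log2 departures from additivity. Plac8 gave 0.98, and Notch1 lowered it by a smaller log2 change with Zmiz1 than without it. Myc gave 1.61 on log2(FPKM + 1), but it passed the filter only through the combined libraries, the value was 0.38 (limma adjusted p = 1) at a pseudocount of 0.01, and as ratios of means Notch1 raised it 14.0 times with Zmiz1 and 11.2 times without it. Ccr8 gave -1.33, and its fall with Notch1 was larger with Zmiz1 (log2 change -1.58) than without it (-0.25, not called). The added 1 shrinks the second value. As ratios of means, Ccr8 with Notch1 was 0.283 times its level without it where Zmiz1 was present, and 0.509 times where it was not. Aldoa gave -1.10, Tpi1 -1.10 and Pgk1 -0.91, and their rise with Notch1 was smaller with Zmiz1. For Aldoa the rise was 0.25 with Zmiz1 and 1.36 without it. Zmiz1 gave -0.56. In the fit without the filter, Dtx1 gave -0.81 and Notch3 -0.85. The Zmiz1 value concerns the vector's own gene. Aldoa, Pgk1 and Plac8 were called under every setting tried. Ccr8 was called in 19 of 22 settings and lost its call at pseudocounts of 0.1 and 0.01 and under quantile normalization. Dtx1 lost its call at 0.01. Less stable were Tpi1 and Zmiz1, each called in 7 of 23 settings, and Notch3, called in 6 of 20. Groups of 3 are too small to test for single outlying libraries, so the libraries described above as unusual were not tested as such.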

How the results depend on the processing

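In place of 7 calls (2 above and 5 below additivity), 3 were made with a pseudocount of 0.1, 0.01 or a minimum mean of 5 FPKM (1 above and 2 below in each case), 4 under quantile normalization (2 above, 2 below), 13 with at least 1 FPKM in at least 3 libraries (2 above, 11 below) and 18 without a filter (5 above, 13 below). The cause was not tested, except that the minimum mean of 5 FPKM leaves out Myc and Ccr8. Median ratio scaling gave 8, robust variances and variances with no trend 6 each. Leaving out each library in turn gave 5 to 8 calls, 2 to 3 above and 3 to 6 below. A group left with 2 libraries was assumed to vary like the others. No called gene changed sign. Zmiz1 gave -0.15 under quantile normalization (limma adjusted p = 1), -0.70 and -0.78 at pseudocounts of 0.1 and 0.01 (limma adjusted p = 0.0622 and 0.0741) and -0.56 with robust variances (limma adjusted p = 0.0604), a minimum mean of 5 FPKM (limma adjusted p = 0.105) or short RNA genes left out (limma adjusted p = 0.051). Its call was also lost when any library but Zmiz1 replicate 2 or Notch1 replicate 3 was left out (limma adjusted p = 0.0681 to 0.131). Notch3 was called without Notch1 replicate 2 or without Notch1 replicate 3 and lost without each of the other 10 libraries (limma adjusted p = 0.0784 to 0.109). Pkm2 was called with a replicate block (limma adjusted p = 0.0222) and under 4 other settings.

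The replicate numbers were not taken to pair the samples: the labels tie them to no shared culture or day, and of the 18 same-numbered pairs 6 had a correlation over 0.1 between their deviations (range -0.176 to 0.267), against 4 of 36 pairs with different numbers. By the mean over the other groups, 9 of 12 libraries correlated best with their own number, a hint from the data and not from the design. With the replicate block 537 genes in place of 332 had an unadjusted p under 0.05, and 7 genes were called, 2 above and 5 below, and 6 of the 7 were shared with the fit without it (Pkm2 in place of Tpi1, limma adjusted p = 0.076). Naming groups by the cell line label leaves the contrast as it is but exchanges the pairwise counts. The levels of Notch1 and Zmiz1 matched the titles and not this label. The L1601P vector against control then had 214 calls in place of 557, Zmiz1 against control 557 in place of 214, L1601P added to Zmiz1 153 in place of 392, and Zmiz1 added to L1601P 392 in place of 153. Of 133 named genes that were not called, 12 had the other sign under at least 1 of up to 23 settings. The median of the glycolysis list stayed between -0.37 and -0.28 and that of the endoplasmic reticulum list between 0.12 and 0.21. Depth is unknown, so values under 1 FPKM, on which Myc, Ccr8, Dtx1 and Notch3 rest, have unknown counting error.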

Other observations

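Other genes were called below a mean of 1 FPKM, where calls also fell on genes near 0 in every group. In the fit without the filter, Ace (angiotensin-converting enzyme) stood at 0.337, 0.398 and 0.398 FPKM in the Notch1+Zmiz1 libraries, at 1.69, 1.73 and 1.65 FPKM in the Notch1 libraries and at 0 to 0.0131 FPKM in the Zmiz1 and control libraries, a departure of -0.97 (limma adjusted p = 6.04e-07). It was called at a pseudocount of 0.1 (-1.93) and not at 0.01 (-2.23, limma adjusted p = 0.452). Myo6, an unconventional myosin, stood at 0.533, 0.556 and 0.599 FPKM in the Notch1+Zmiz1 libraries, at 0.0755 to 0.141 FPKM in the Notch1 libraries, at 2.42, 2.66 and 2.38 FPKM in the Zmiz1 libraries and at 0.337 to 0.453 FPKM in the controls, a departure of -0.82 (limma adjusted p = 0.000805). The Myo6 call was lost at pseudocounts of 0.1 (-0.67, limma adjusted p = 0.963) and 0.01 (-0.26, limma adjusted p = 1), and as ratios of means the combination was 1.41 times the control where the single ratios multiply to 1.63. Ace had the group order of Dtx1, with Notch1 highest, and Myo6 that of Ccr8, with Zmiz1 highest.

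The following genes over the filter were not called; their values were known when they were picked. The chemokine receptor Ccr7 gave 0.43 (limma adjusted p = 0.366), with 3.23, 2.94 and 3.1 FPKM in the Notch1+Zmiz1 libraries, 3.7, 3.84 and 4.06 FPKM in the Notch1 libraries, 3.64, 3.63 and 3.34 FPKM in the Zmiz1 libraries and 6.62, 5.98 and 6.17 FPKM in the controls. Like Plac8, it was highest in the controls. The cyclin-dependent kinase gene Cdk20 gave -0.34 (limma adjusted p = 0.366), with 35, 36.5 and 35.5 FPKM in the Notch1+Zmiz1 libraries, 29.2, 31.3 and 32.1 FPKM in the Notch1 libraries, 39.7, 42.4 and 42.8 FPKM in the Zmiz1 libraries and 27.9, 28.4 and 28.3 FPKM in the controls. The protease inhibitor gene Serpine2 gave 0.39 (limma adjusted p = 0.485).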
